A study of Mus musculus with 6 samples.

Results

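In cultured mouse microglia, 10 CC chemokine genes were described together: Ccl2, Ccl3, Ccl4, Ccl5, Ccl6, Ccl7, Ccl8, Ccl9, Ccl12 and Ccl24. They were chosen by gene symbol, with earlier results of these data known. All 10 were found among the 41079 genes of the count and FPKM tables (FPKM being counts scaled by gene length and library size). Each also passed the filter on low counts, which left 14618 genes for testing. RNA-seq had been carried out on primary microglia from C57Bl/6N mice of 1 to 3 days of age, in 3 control and 3 optimized cultures. Control cells were kept in serum-free DMEM/F12 without added factors, and the coating of their wells is not given in the sources used here. Optimized cells received, in the same serum-free medium, human TGF-beta, human IL34 and CX3CL1 at 100 ng/mL each, and the study's methods add cholesterol, an insulin-transferrin-selenium solution and wells coated with collagen IV. Cells of both groups had been grown in mixed glial flasks on poly-L-ornithine, stimulated with medium conditioned by L-929 cells, a mouse fibroblast line that secretes the macrophage growth factor M-CSF, and shaken off the flasks. By the study's methods, these flasks held serum and were harvested some weeks after isolation. Before the medium was replaced, cells in all conditions also adhered briefly in medium with serum. All additions were made together, so the contribution of a single cytokine, of the lipid or of the coating cannot be told apart. No freshly isolated cells are among these libraries, and neonatal cells in monoculture do not stand for adult microglia in the brain.

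CC chemokines are small secreted proteins, named for a pair of adjacent cysteines, that guide leukocytes by binding receptors coupled to inhibitory G proteins. Microglia, the resident macrophages of the brain, can release them after injury, infection or contact with microbial products, and monocytes, T cells and other microglia respond to them. Ligands and receptors are promiscuous: Ccl2, Ccl7 and Ccl12 act on CCR2, Ccl3, Ccl5, Ccl6 and Ccl9 share CCR1, and several ligands act on more than a single receptor. Most of these genes lie side by side in clusters that arose by gene duplication.

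Most of the 10 members were less abundant under optimized conditions. Among 14 further CC chemokine genes, 2 were tested and neither was called lower. Of the 10 members, 9 were lower, none was higher, and Ccl24 did not pass the threshold (edgeR's quasi-likelihood test, Benjamini-Hochberg adjusted p under 0.05). Over all genes tested, 15.2% were called lower and 14.7% higher, or 29.8% in either direction. For 9 of 10 members every optimized library was below every control library, a pattern found in 22.5% of all genes tested. The median log2 fold change of the members was -2.43, against 0.0079 for all genes tested. For 6 members, Ccl2, Ccl4, Ccl5, Ccl6, Ccl9 and Ccl12, the log2 fold change was -2 or lower with an adjusted p under 0.05, which held for 1.35% of all genes. The members were chosen with earlier results of these data known. The shares over all genes are therefore a scale beside them, not a test of the set. In bulk RNA, fewer cells that express a gene and less mRNA per cell cannot be told apart.

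**Figure D1:**
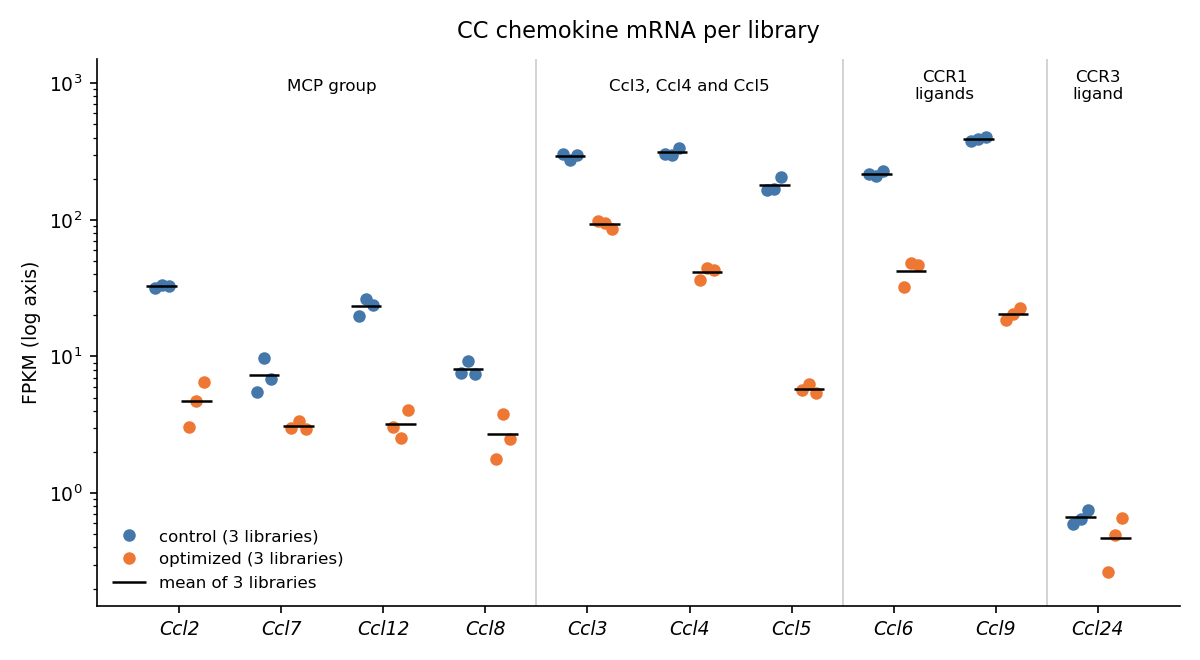
Level of each CC chemokine in each library, in FPKM on a log10 axis, with genes on the horizontal axis in the order of their receptor groups; points are the 3 control and 3 optimized libraries and short lines the group means. Every optimized point lies below every control point except for Ccl24, and Ccl9 falls from a mean of 390.0 to 20.5 FPKM.

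Summed over the 10 members, the level was 1433, 1420 and 1538 FPKM in the control libraries. The optimized libraries held 201.2, 229.3 and 219.7 FPKM. The sum was thus 6.76-fold lower, with a log2 difference of -2.76, and the groups did not overlap (two-sided exact permutation test, p = 0.1, the smallest that 3 against 3 libraries allow). In raw counts, the members took 0.209%, 0.208% and 0.221% of each control library, but 0.0229%, 0.0254% and 0.0249% of each optimized library.

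In the mouse genome (GRCm39), 9 members lie on chromosome 11 in 2 clusters and Ccl24 stands alone on chromosome 5. The first cluster spans 81.2 kb and holds, all on the forward strand, Ccl2 (chr11:81926397-81928279), Ccl7 (chr11:81936532-81938351), Ccl12 (chr11:81992645-81994466) and Ccl8 (chr11:82006007-82007625). The other cluster, 1409 kb further on, spans 138.9 kb. It holds Ccl5 (chr11:83416602-83425942), Ccl9 (chr11:83463745-83473161), Ccl6 (chr11:83478708-83483913) and Ccl3 (chr11:83538670-83540191) on the reverse strand and Ccl4 (chr11:83553383-83555509) on the forward strand. Ccl24 lies at chr5:135598668-135601905 on the reverse strand. Although the genes are related, no stretch of 30 bases was shared between the transcripts of any 2 members, so an exact read of that length belongs to only 1 of them.

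In these genes, 4 words bound by transcription factors of macrophages and immune responses, and 1 bound by SMAD proteins, the mediators of TGF-beta signals, were searched on both strands of the 250 bases before the start of each gene's canonical transcript. The NF-kappaB word (GGG, any 2 bases, TTT, then CC) was found in front of 3 of 10 members, Ccl2, Ccl5 and Ccl9, and in 1.5% of 20996 protein-coding promoters of the same length. The AP-1 word TGANTCA was found for Ccl7 and Ccl9 and in 6.17% of promoters. The word GAGGAAGT of PU.1, a factor that defines macrophages, was found for 2 of 10 members, Ccl5 and Ccl24, and in 2.06% of promoters. Ccl24 was the member that did not pass the threshold. The interferon response word (GAAA, any 2 bases, GAAA), present in 3.31% of promoters, and the SMAD word GTCTAGAC, present in 0.233%, were found for none of the members. No match overlapped another. A match is a string of letters and not an observed binding site, and a missing match says only that these letters are not in this window. The 3 promoters with the NF-kappaB word are printed because they precede 3 genes with large falls. Ccl4 and Ccl12 had no match to any of these words, with log2 fold changes of -2.78 and -2.73 against -2.63 for Ccl2. A link between the words and the falls was not tested. Each reads 5′ to 3′ along the strand of its gene and ends at the base before the start, and capitals mark the matched words: NF-kappaB in Ccl2 at 146 bases before the start, in Ccl5 at 89 and in Ccl9 at 30, PU.1 in Ccl5 at 55, and AP-1 in Ccl9 at 48.
Ccl2 (chr11:81926147-81926396, forward strand): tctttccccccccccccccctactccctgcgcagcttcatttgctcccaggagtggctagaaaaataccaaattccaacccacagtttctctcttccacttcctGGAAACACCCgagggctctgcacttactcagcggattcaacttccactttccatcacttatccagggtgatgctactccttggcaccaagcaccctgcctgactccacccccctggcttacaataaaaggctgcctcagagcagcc
Ccl5 (chr11:83421346-83421595, reverse strand): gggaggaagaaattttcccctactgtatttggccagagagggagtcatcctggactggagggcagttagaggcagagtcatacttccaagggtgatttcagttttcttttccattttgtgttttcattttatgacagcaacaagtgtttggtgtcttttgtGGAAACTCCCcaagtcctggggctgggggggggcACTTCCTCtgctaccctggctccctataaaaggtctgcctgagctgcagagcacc
Ccl9 (chr11:83469468-83469717, reverse strand): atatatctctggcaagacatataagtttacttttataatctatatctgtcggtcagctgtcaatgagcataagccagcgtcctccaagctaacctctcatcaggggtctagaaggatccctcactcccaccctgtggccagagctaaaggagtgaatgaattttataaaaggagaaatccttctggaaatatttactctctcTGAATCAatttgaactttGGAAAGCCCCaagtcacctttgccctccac

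The monocyte chemoattractants, the MCP group, were all lower. Ccl2, the main ligand of CCR2 and the classical signal that draws monocytes out of the blood, had levels of 31.6, 33.4 and 32.8 FPKM in controls, and of 3.03, 4.74 and 6.51 FPKM in optimized libraries. The groups did not overlap, and the optimized libraries spread more widely than the controls. Ccl2 was 6.20-fold lower, with a log2 fold change of -2.63 (SE 0.22; adjusted p = 1.2e-05, edgeR). Ccl12, a CCR2 ligand of rodents, was measured at 19.8, 26.3 and 23.7 FPKM in controls and 3.03, 2.51 and 4.05 FPKM under optimized conditions. Again no optimized library reached a control library, and the log2 fold change was -2.73 (SE 0.20; adjusted p = 5.0e-06, edgeR).

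Ccl7, a ligand of CCR2 and other receptors, stood at 5.54, 9.69 and 6.85 FPKM in controls and at 2.99, 3.37 and 2.94 FPKM in optimized libraries. Its spread lay mainly among the controls, and its log2 fold change of -1.10 was the smallest of the members that passed (SE 0.23; adjusted p = 0.0050, edgeR). Ccl8, whose mouse protein acts on CCR8, had 7.62, 9.21 and 7.39 FPKM in controls and 1.77, 3.81 and 2.48 FPKM in optimized libraries. Here the spread was among the optimized libraries, of which the highest was still below the lowest control, and the log2 fold change was -1.42 (SE 0.29; adjusted p = 0.0046, edgeR). Ccl7 and Ccl8 rested on few reads, with 52 to 183 and 20 to 111 counts per library.

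Ccl3, Ccl4 and Ccl5, inflammatory chemokines that recruit monocytes and lymphocytes, were all lower. Ccl3 had levels of 303, 273 and 296 FPKM in controls and 97.9, 95.2 and 85.3 FPKM in optimized libraries. The fall was clear of the replicate spread but modest within the family, at 2.85-fold (log2 fold change -1.51, SE 0.098; adjusted p = 2.6e-06, edgeR). Ccl4, its neighbour and close relative, was measured at 304, 298 and 336 FPKM in controls and 36.0, 44.2 and 43.3 FPKM in optimized libraries. Both genes thus stood at about the same level in controls, and Ccl4 was 6.89-fold lower (log2 fold change -2.78, SE 0.13; adjusted p = 3.1e-07, edgeR). Ccl5, a chemoattractant of T cells, monocytes and eosinophils, had 166, 169 and 206 FPKM in controls and 5.69, 6.33 and 5.44 FPKM in optimized libraries. It changed most of the members: 28.1-fold lower, with a log2 fold change of -4.81 (SE 0.16; adjusted p = 4.1e-08, edgeR), the 12th lowest of the 14618 genes tested.

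Exons of Ccl3 share 276 bases with Gm53692, a long non-coding RNA gene on the opposite strand. Counts of Gm53692 were 0.839 to 0.861 times those of Ccl3 in every library, and its log2 fold change was -1.51 as well. The strand setting of the counting is not given in the sources used here, so reads of Ccl3 and of Gm53692 cannot be told apart, and the level of Ccl3 is uncertain.

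Ccl6 and Ccl9, CCR1 ligands that are known from myeloid cells of rodents, had the highest read counts of the family in control libraries. Ccl9 was the most abundant member in controls, at 379, 390.3 and 400.3 FPKM, and had 18.4, 20.5 and 22.6 FPKM in optimized libraries. The libraries of each group lay close together and the groups far apart. Ccl9 was 17.3-fold lower (log2 fold change -4.11, SE 0.12; adjusted p = 4.0e-08, edgeR), the 22nd lowest of all genes tested. Ccl6 had 216, 210.1 and 227 FPKM in controls and 32.1, 48.2 and 46.5 FPKM in optimized libraries, with optimized replicate 1 below the other two. It was 4.66-fold lower (log2 fold change -2.22, SE 0.17; adjusted p = 6.0e-06, edgeR).

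Ccl24, a ligand of the eosinophil receptor CCR3, was the exception. It was close to the limit of detection, with 18, 21 and 29 counts in controls against 8, 18 and 20 counts under optimized conditions. The groups overlapped, at 0.594 to 0.754 FPKM in controls and 0.263 to 0.660 FPKM in optimized libraries. The log2 fold change was -0.36 (SE 0.39; adjusted p = 0.55, edgeR), with a 95% interval from -1.23 to 0.52. At this depth, changes from a fall of about the size seen for Ccl7 to a modest rise lie within that interval.

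**Figure D2:**
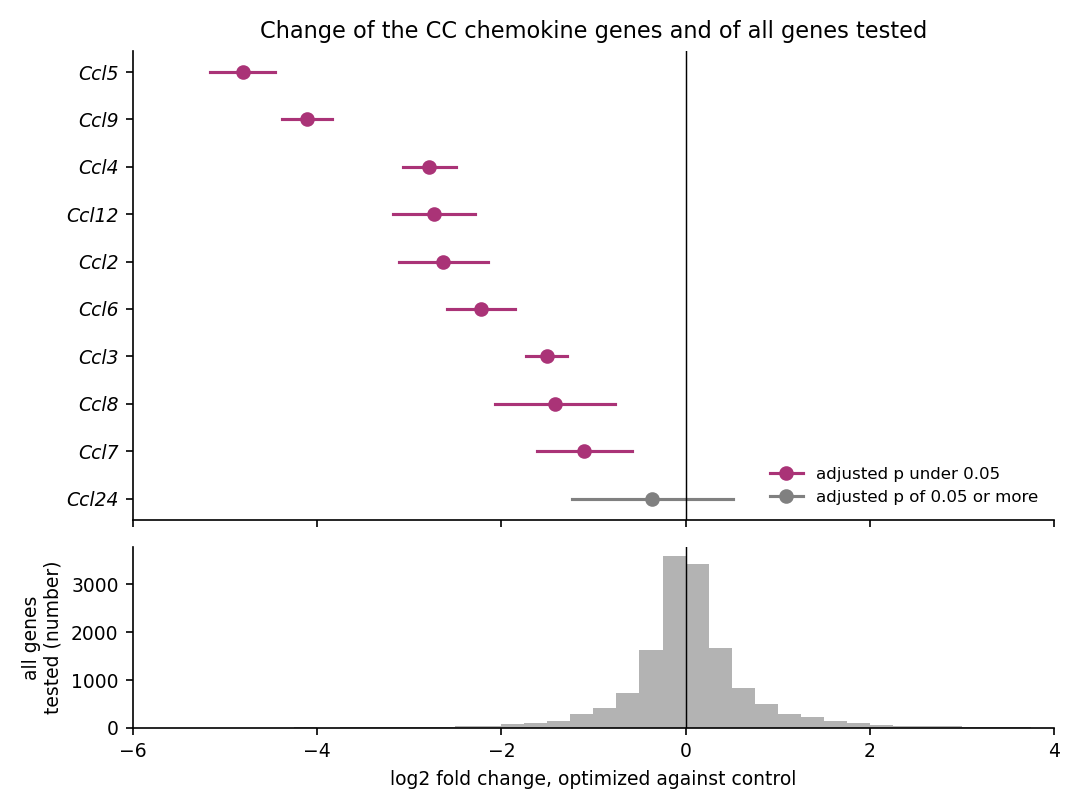
Log2 fold change (optimized against control) of each member with its 95% interval, ordered from the largest fall (top). Below, on the same axis, is a histogram of the log2 fold changes of all genes tested. Black vertical lines mark 0. Ccl5 at -4.81 and Ccl9 at -4.11 lie apart from the others, and the interval of Ccl24 spans 0.

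The 95% intervals of the log2 fold changes set Ccl5 and Ccl9 apart from each other and from the rest. The interval of Ccl5, from -5.16 to -4.46, did not overlap that of Ccl9, from -4.38 to -3.84, and neither overlapped that of Ccl4. Neighbours among Ccl4, Ccl12, Ccl2 and Ccl6 overlapped, from -3.17 at the lowest bound of Ccl12 to -1.85 at the highest of Ccl6. The interval of Ccl6 did not reach that of Ccl3, which began at -1.73, and from there neighbours among Ccl3, Ccl8, Ccl7 and Ccl24 overlapped. Intervals describe each gene's own fold change, and differences between genes were not tested in that fit.

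The make-up of the family's mRNA also differed between the groups. In controls Ccl9 had the highest level per length, followed by Ccl4 and Ccl3, whose libraries overlapped, then by Ccl6, Ccl5, Ccl2 and Ccl12, each separate from the next, by Ccl8 and Ccl7, which overlapped, and by Ccl24. In optimized cultures Ccl3 was highest and separate from all others, Ccl6 and Ccl4 overlapped, and Ccl9 came after them. Below Ccl9, neighbours in the order Ccl5, Ccl2, Ccl12, Ccl7 and Ccl8 overlapped, and Ccl24 was separate and lowest. The ratio of the highest to the lowest mean level was 586 in controls and 196.7 in optimized cultures. The lowest in both groups was Ccl24, close to the limit of detection. The highest in optimized cultures was Ccl3, whose level is uncertain, so no narrowing of the range is read from these ratios.

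As a share of the summed FPKM, Ccl3 made up 21.2%, 19.3% and 19.2% in controls and 48.7%, 41.5% and 38.8% in optimized libraries. Its mean share was therefore higher by 23.1 percentage points, with no overlap of the groups. The share of Ccl9 was 26.7% ± 0.75 (SD, n = 3) in controls and 9.46% ± 0.71 in optimized libraries, and that of Ccl5 was 12.3% ± 0.97 and 2.69% ± 0.19. Both were lower in every optimized library. Ccl6 held 14.9% ± 0.15 and 19.4% ± 2.97. Shares of Ccl7, Ccl8 and Ccl24 were higher in every optimized library but stayed at or below 1.66%, while those of Ccl2 and Ccl12 overlapped between the groups. In an exact permutation test, two-sided, the 8 members without overlap reached p = 0.1 each, or 0.125 after adjustment over the 10 members, and 3 against 3 libraries cannot go lower than 0.1. Ccl4 held 21.3% ± 0.47 and 18.9% ± 0.94, but its difference of -2.40 percentage points turned to 1.52 when CPM, counts scaled by library size (with TMM factors) and not by gene length, were used in place of FPKM. On that scale the differences of Ccl9, Ccl5 and Ccl6 were -30.6, -3.32 and 10.4 percentage points, against -17.2, -9.61 and 4.50 in FPKM. Levels between genes also depend on the gene model: relative to Ccl3, the length that the FPKM table implies was 0.673 for Ccl5 and 0.678 for Ccl12, against 1.32 and 1.03 for all exons in the GENCODE annotation.

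**Figure D3:**
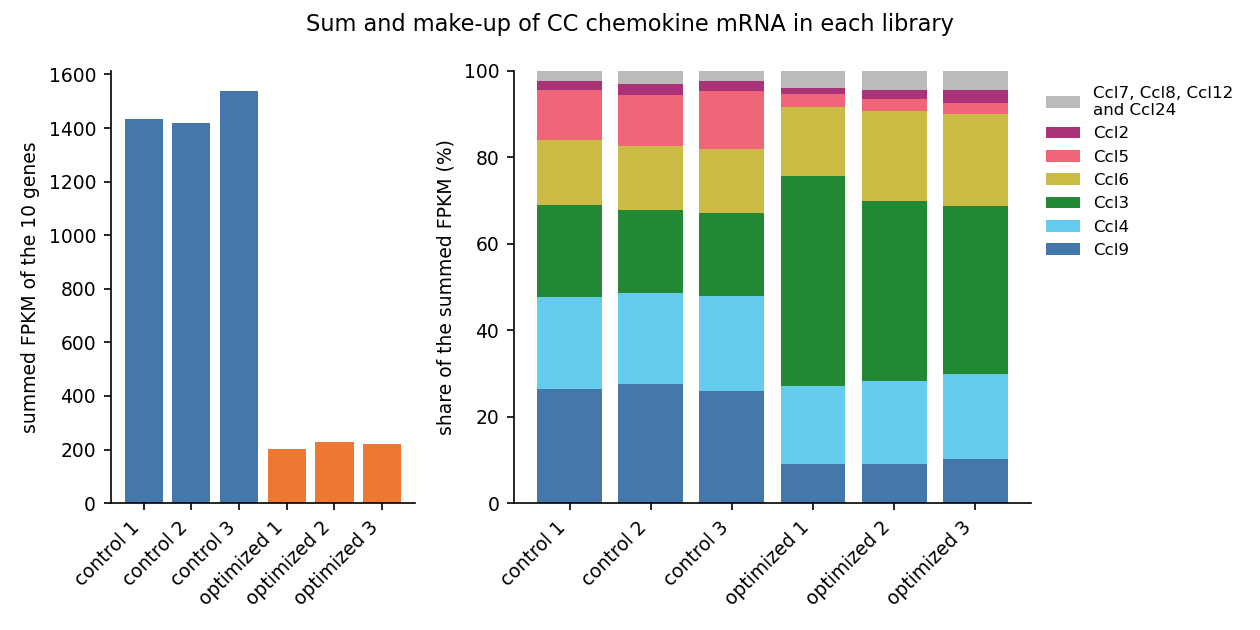
Summed FPKM of the 10 members (left) and the share of each in that sum in percent (right, stacked, with Ccl7, Ccl8, Ccl12 and Ccl24 joined), for each of the 3 control and 3 optimized libraries, as bars that start at 0. Ccl9 takes 26.0% to 27.5% in controls and 8.95% to 10.3% in optimized libraries, and Ccl3 takes 38.8% to 48.7% in the latter.

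Ratios within a library do not depend on the scaling between libraries, and 6 pairs of genes from the same cluster were compared in this way. The FPKM of Ccl3 was 0.9996, 0.918 and 0.880 times that of Ccl4 in controls and 2.72, 2.15 and 1.97 times in optimized libraries. The FPKM of Ccl6 was 0.569, 0.538 and 0.568 times that of Ccl9 in controls and 1.74, 2.34 and 2.06 times in optimized libraries. In both pairs the ratio was higher in every optimized library, with log2 differences of 1.28 and 1.87, which do not depend on gene length. Which gene of a pair is higher does depend on it: in raw counts Ccl3 was above Ccl4 in every control library too, at 5297 against 4427, 5091 against 4634 and 6561 against 6232. Likewise Ccl6, at 1020, 1847 and 1477 counts in optimized libraries, was above Ccl9, at 1228, 1650 and 1501, only in optimized replicate 2. The ratio of Ccl2 to Ccl7 was 5.70, 3.44 and 4.78 in controls and 1.01, 1.41 and 2.22 in optimized libraries. It was lower in all 3, while the ratios of Ccl7 and of Ccl8 to Ccl12 were higher in all 3, by 1.67 and 1.23 on the log2 scale. Ccl2 and Ccl12 kept a ratio of 1.27 to 1.60 in controls and 0.998 to 1.88 in optimized libraries, which overlap, with a log2 difference of 0.037. The other 5 pairs each gave p = 0.1 (two-sided exact permutation test), or 0.12 adjusted over the 6 pairs, and Ccl2 against Ccl12 gave p = 0.9.

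The falls were found in both clusters of chromosome 11. In the Ccl2 to Ccl8 cluster, 4 of 4 members were lower, with log2 fold changes from -2.73 to -1.10 and a median of -2.02. In the Ccl5 to Ccl4 cluster, 5 of 5 were lower, from -4.81 to -1.51 with a median of -2.78. Genes within 250 kb of each cluster were then examined, a window chosen after values had been seen. Around the Ccl2 cluster, 6 other genes were listed and none had enough counts to be tested. They include Ccl11, an eotaxin, with 0 to 3 counts per library, and Ccl1, with 0 in every library.

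Around the Ccl5 cluster, 24 other genes were listed, Gm53692 among them. Leaving out Gm53692, 9 were tested, of which 5 were lower and none higher. Heatr9, next to Ccl5, had 26, 24 and 24 counts in controls and 4, 2 and 1 in optimized libraries, a log2 fold change of -3.15 (SE 0.49; adjusted p = 0.00085, edgeR). Gm38933, a long non-coding RNA gene between Ccl6 and Ccl3, had 40, 106 and 49 counts in controls and 1, 19 and 11 in optimized libraries. The protease inhibitor-like genes Wfdc17 and Wfdc18 and, further out, Heatr6 had log2 fold changes of -0.73, -1.27 and -0.37. Ap2b1, Mmp28 and Taf15 were among those that did not pass the test. Within the same distance of Ccl24, 3 of 7 other tested genes, Hip1, Por and Tmem120a, were lower and none was higher. Both counts stand beside 15.2% of all genes lower and 14.7% higher, and nothing is read from them because of how the window was chosen.

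**Figure D4:**
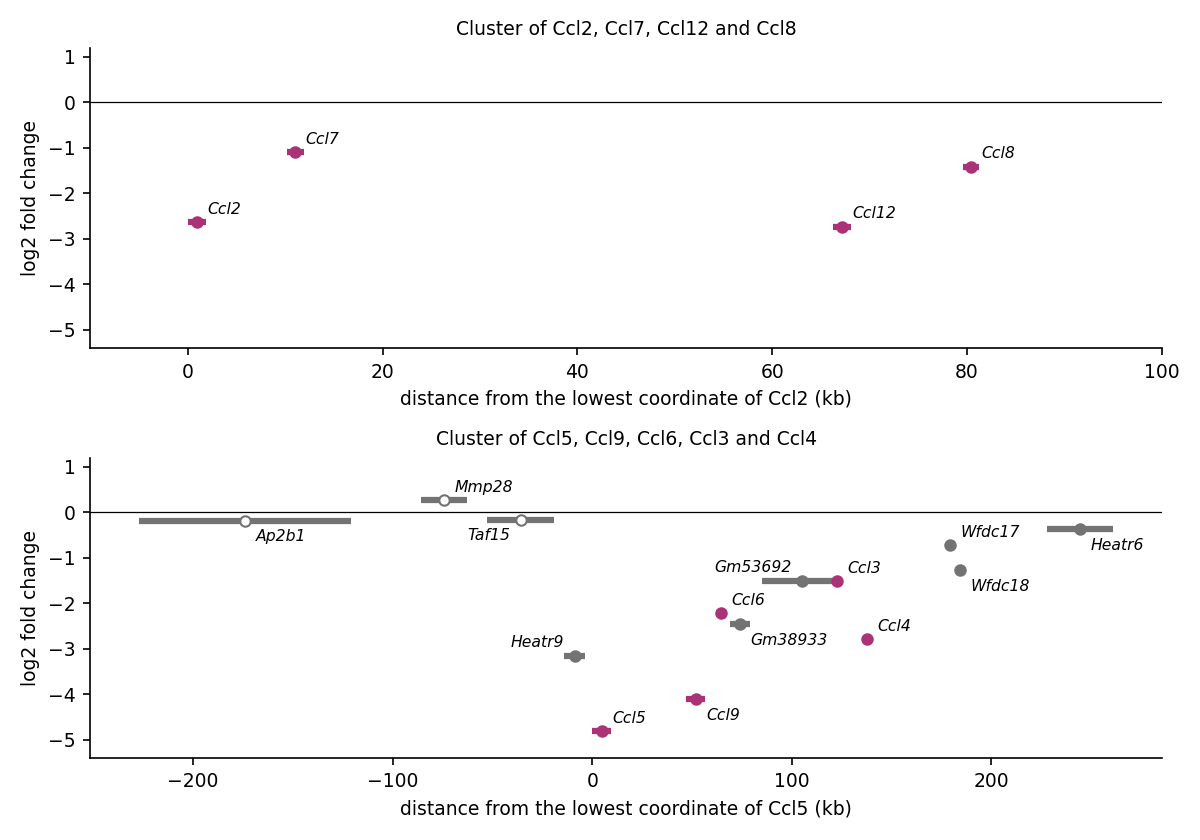
Log2 fold change of tested genes (vertical axis) against the distance in kb from the lowest coordinate of Ccl2 or Ccl5 (horizontal axis), with bars for gene spans. Purple marks members and grey other genes, and open circles are genes with an adjusted p of 0.05 or more; the filled circles lie below 0 in both panels, from -4.81 for Ccl5 to -0.37 for Heatr6.

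The receptors of these ligands were measured in the same cells. Of the 6 tested CC chemokine receptor genes, including scavenging receptors, none was higher. The share over all genes tested was 14.7% higher and 15.2% lower. With so few genes, nothing is read from this count. Ccrl2, an atypical receptor that does not signal as the others do, had 488, 486 and 599 counts and 243, 327 and 250 counts, with a log2 fold change of -0.75 (SE 0.11; adjusted p = 0.00061, edgeR). Ccr3, the receptor of Ccl24 and also of Ccl5, had 57, 48 and 82 counts in controls and 0 in each optimized library (adjusted p = 6.0e-05, edgeR). Its level was at least 18.0-fold lower, with 3 counts per library taken as the limit that a count of 0 allows.

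Ccr1, the receptor of Ccl6 and Ccl9, had 239, 259 and 279 counts in controls and 201, 263 and 329 in optimized libraries, which overlap. Its log2 fold change was 0.23 (SE 0.18; adjusted p = 0.38, edgeR), with a 95% interval from -0.17 to 0.63. Ccr2, by which monocytes sense Ccl2, had only 14, 16 and 24 counts and 33, 14 and 10 counts, and its log2 fold change was 0.29 (SE 0.47; adjusted p = 0.71, edgeR). Ackr4, a scavenging receptor whose exons overlap those of Acad11 on the opposite strand, had a log2 fold change of 0.60 (SE 0.21; adjusted p = 0.060, edgeR). It passed the threshold, at 0.70 with an adjusted p of 0.028 by edgeR, when optimized replicate 1 was left out; over all alternatives its adjusted p ran from 0.028 to 0.197. Of the receptor genes not tested, Ccr1l1 had 1, 10 and 8 counts in controls and 0 in each optimized library, and Ccr4, Ccr7 and Ackr2 were at 0 in every library.

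**Figure D5:**
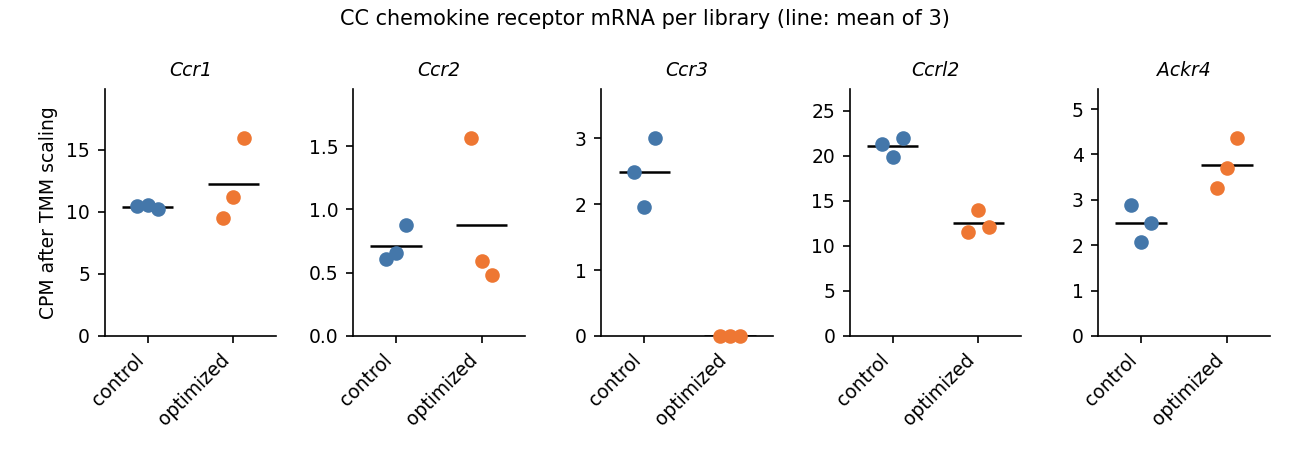
Levels of 5 tested CC chemokine receptor genes in the control and optimized libraries, in TMM-scaled CPM, 1 point per library and a line at each group mean. Ccrl2 falls from a mean of 21.0 to 12.5, Ccr3 lies at 0 in all 3 optimized libraries, and the points of Ccr1 and Ccr2 overlap between the groups.

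The other CC chemokine genes were hardly detected. Of 14 further genes of the family, 2 were tested, and neither Ccl25 (log2 fold change 0.41, adjusted p = 0.26) nor Ccl27a (0.16, adjusted p = 0.73) passed edgeR's test. Exons of Ccl25 overlap those of Elavl1 on the opposite strand. Ccl1, Ccl17, Ccl19, Ccl20, Ccl21a and Ccl21d were at 0 in all 6 libraries, which allows up to 3 counts each. Ccl22, a chemokine of dendritic cells and macrophages, had 11, 22 and 10 counts in controls and 4, 4 and 2 in optimized libraries, too few to pass the filter. Ccl28 had 1, 2 and 0 counts in controls and 42, 4 and 0 in optimized libraries, so that its reads came from optimized replicate 1.

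Genes that carry or limit the receptor signal were also counted. Of 23 tested genes for G protein subunits, receptor kinases, arrestins, regulators of G protein signalling and downstream enzymes, 10 were lower, 2 were higher and 11 did not pass; their median log2 fold change was -0.20. Over all genes tested, 15.2% were lower and 14.7% higher. The lowest was Rgs18 at -1.64, a regulator that shortens G protein signals in blood cells, and the highest was Rgs2 at 0.67, another regulator of this family. Pik3cg, the catalytic subunit of the kinase PI3K gamma, was higher at 0.43. Among the 10 lower genes were Grk3 at -0.91 and Arrb1 at -0.90, which help to silence and internalise receptors, Rac2 at -0.84, a GTPase of leukocyte movement, Gng2 at -0.72 and Pik3r5 at -0.60.

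Proteases known to trim or inactivate chemokines moved in both directions. Of 10 listed, 7 were tested, 4 being lower and 3 higher, against 29.8% of all genes called in either direction, and their median log2 fold change was -0.80. The matrix metalloproteinases Mmp9 (-4.60), Mmp13 (-2.97), Mmp12 (-2.46) and Mmp14 (-0.80) were lower, whereas Mmp2 (0.98), Mmp8 (1.57) and carboxypeptidase D, Cpd (1.48), were higher, all with an adjusted p under 0.05 by edgeR's test.

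The libraries held 20628148 to 27261839 counts, and replicates of a group differed by more than sampling noise. Markers of microglia gave a sum of 11300 to 12800 CPM in controls and 15820 to 21970 CPM in optimized libraries, with 7 of 12 higher and 2 lower. The 2 lower genes were Csf1r (log2 fold change -0.39) and Aif1 (-0.45), and C1qa was among those that did not pass. For such counts, 15.2% of all genes tested were called lower and 14.7% higher. Markers of border-associated macrophages summed to 2831 to 3388 and 2850 to 3408 CPM, with 3 of 6 tested higher and Mrc1 lower (-2.40). T and NK cell markers, from cells that can supply Ccl5, reached at most 0.183 CPM in controls and 0.596 CPM in optimized libraries, and 5 of 8, including Cd3e, Cd8a and Nkg7, were at 0 throughout. Monocyte and neutrophil markers summed to 0.306 to 0.769 CPM and 1.60 to 4.26 CPM, with 3 of 8 at 0, the higher sums coming from S100a8 and, in optimized replicate 1, from Plac8. Astrocyte markers were at 29.9 to 31.5 and 15.3 to 18.6 CPM, mostly through Aldh1l1 (log2 fold change -1.83), the 1 gene of 6 called. The others did not pass edgeR's test: Slc1a2 (-0.59), Slc1a3 (-0.51), Aqp4 (-0.20), Gfap (0.16) and S100b (0.38). Slc1a2 and Slc1a3 were still lower in every optimized library than in every control library. Oligodendrocyte lineage markers were at 127.5 to 143 and 159.8 to 192 CPM, neuron markers at 3.08 to 4.72 and 5.30 to 6.34 CPM, fibroblast and mural markers at 19.4 to 25.5 and 19.9 to 77.0 CPM, and endothelial markers, almost entirely Flt1, at 81.5 to 97.1 and 273.8 to 352 CPM. The part of these other cells in the chemokine values was not tested. The same 9 members were lower whichever library was left out.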

How the data were processed

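RNA was sequenced from 3 control and 3 optimized cultures, described by the study as biological replicates. Paired-end reads were aligned by the authors with HISAT2 (build mm39) and assigned to genes with featureCounts, as the submitters' processing notes also state. Versions, annotation and strand setting are not given in the sources used here. They deposited raw counts per gene without normalization, and FPKM values, in which the authors divided each count by a constant of the gene and one of the library. Groups and replicate numbers came from the labels.

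Counts were tested with edgeR 4.0.16 in R 4.3.3 (filterByExpr, TMM factors, glmQLFit and glmQLFTest, Benjamini-Hochberg over 14618 genes, threshold 0.05), on code tested on simulated data. Standard errors are the log2 fold change divided by the square root of F. Limma 3.58.1 and DESeq2 1.42.0 served as alternatives. FPKM was used for levels, shares and ratios, with exact permutation tests in scipy 1.17.1, and in the limma alternatives. With 20628148 to 27261839 counts per library and a common dispersion of 0.0164, genes with few counts carry large errors. Limits from counts of 0 cover counting error only.

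All members were named whatever their change, and other genes only from lists of receptors, signalling genes, proteases, further CC chemokines, cell type markers and cluster neighbours. Members and lists were chosen with earlier results of these data known. Positions, transcript starts and promoter sequence came from GRCm39 with GENCODE M39, in which 35087 of the 41079 symbols were found. Some genes and 1 sequence are not reported here.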

Additional observations from a re-analysis of the deposited data

How the results depend on the processing

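Over 15 alternatives, the 9 members that were lower kept their direction and an adjusted p under 0.05 in every one, and Ccl24, which gave a value in 13, passed the threshold in none (log2 fold change -0.64 to -0.067, adjusted p 0.202 to 0.916). Leaving out 1 library at a time gave 9 to 9 members lower, a member median of -2.55 to -2.21, 0 to 1 receptors higher (1, Ackr4, without optimized replicate 1), and 1646 to 2643 genes lower and 1603 to 2591 higher overall. Such fits, with 2 libraries in a group, share the spread over both groups.

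Scaling by library size alone moved the median of all genes from 0.0079 to -0.12 on the log2 scale, and 3168 genes were lower and 1513 higher, so that 67.7% of the calls were lower against 50.9%. Limma on log2(FPKM + 1) gave 68.9% and with a pseudocount of 0.1 gave 68.7%. With a mean FPKM of at least 1 it gave 71.6%, a median of -0.13 and 1176 genes higher against 2142. The summed members differed by -2.99 in CPM.

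Some differences between the groups changed sign. They lay near 0, except that of the Ccl4 share, for which the groups did not overlap in FPKM. With 1 library left out, Ccr1 ran from -0.0058 (without optimized replicate 3) to 0.38 and Ccr2 from -0.40 (without optimized replicate 1) to 0.57. With CPM in place of FPKM, the difference in share (optimized minus control, in percentage points) of Ccl2 went from -0.050 to 0.334. That of Ccl12 went from -0.108 to 0.126, and that of Ccl4 from -2.40 to 1.52. In FPKM with 1 library left out, the difference in share of Ccl2 ran from -0.44 to 0.287 and that of Ccl12 from -0.289 to 0.0850. The difference in the log2 ratio of Ccl2 to Ccl12 ran from -0.155 to 0.304. The cause was not tested.

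Deviations of same-numbered libraries correlated at 0.273, -0.012 and 0.185. Control replicate 1 correlated best with its own number and control replicate 2 did not. Control replicate 3 was nearly tied, at 0.189 with optimized replicate 2. With 3 libraries per group, these values cannot decide whether the numbers pair the cultures. With the replicate block, 2523 genes were lower and 2401 higher, and 9 members were lower and 0 higher. Depth limits Ccl24, Ccr2 and the genes that were not tested.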
